A study of Homo sapiens with 6 samples.

Results

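ATF4, the transcription factor of the integrated stress response, and 9 of its known targets (DDIT3, TRIB3, CHAC1, ASNS, VLDLR, STC2, GDF15, SESN2 and CEBPB) were followed in corneal endothelial cells depleted of NAMPT. The 10 genes were taken by symbol from a table of 50868 genes, and all 10 had enough reads to be tested. After NAMPT depletion the mRNA of 5 of them fell (ATF4, CHAC1, ASNS, VLDLR and STC2), none rose, and TRIB3, DDIT3, GDF15, SESN2 and CEBPB did not pass the test, edgeR's quasi-likelihood test at a Benjamini-Hochberg adjusted p of 0.05. Of all 15213 genes tested, 42.7% were called, 21.9% lower and 20.8% higher. The falls ranged from 29.6% for ASNS to 81.9% for VLDLR.

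In the integrated stress response, kinases that sense stress phosphorylate the translation factor eIF2, which lowers protein synthesis in general while upstream reading frames let ATF4 be translated more. ATF4 pairs with C/EBP and other bZIP factors on composite DNA elements and switches on genes for amino acid supply, tRNA charging, redox control and feedback. Because ATF4 is controlled largely at translation, the mRNA levels given here do not measure its protein.

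The study used B4G12, a clonal immortalised line from human corneal endothelium, the layer that pumps fluid out of the corneal stroma. Cells labelled WT received a control siRNA (siControl, 3 libraries) and cells labelled NAMPT knockdown received an siRNA against NAMPT (siNAMPT, 3 libraries), so both groups went through siRNA treatment. NAMPT makes nicotinamide mononucleotide in the salvage route to NAD. The sources used here do not state the siRNA sequences, doses or time after transfection. The labels also leave out whether the replicates were separate cultures, so each p-value reflects the variation among these libraries alone and could be technical.

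Libraries held 19510796 to 22364717 counts. NAMPT fell by 83.5%, from 164, 170 and 184 CPM (counts scaled to library size with edgeR's TMM factors) in siControl to 26.7, 29.05 and 29.6 CPM in siNAMPT (adjusted p = 2.60e-06, and p = 0.1 in an exact two-sided permutation test, the smallest that 3 against 3 allows). Of 16 corneal endothelium markers 7 had a mean FPKM (fragments scaled for gene length and library size) of at least 1, TFAP2B was at 0 in all libraries, and NCAM1, SLC4A4 and COL8A2 were below 0.05 FPKM. Of 10 epithelial markers 7 reached 1 FPKM, with a summed level of 849 to 924 FPKM in siControl and 832 to 921 in siNAMPT. This sum hides opposite changes: of 8 tested, 3 were higher and 3 lower, with log2 fold changes from -0.99 to 1.85. The summed levels of other marker lists were higher in siNAMPT: 218 to 225 against 240 to 247 FPKM for corneal endothelium, 21.7 to 26.5 against 33.6 to 40.6 for 9 stromal genes, 0.853 to 1.01 against 1.196 to 1.34 for 6 vascular genes and 1.77 to 2.30 against 3.96 to 4.73 for 6 leukocyte genes. The last 3 sums rest on few genes: ALDH3A1 (22.8 and 34.7 FPKM) and COL3A1 were the only stromal genes with a mean of at least 1 FPKM, no vascular gene reached it, and CD68 (1.91 and 4.17 FPKM) was the only leukocyte gene that did. Of 9 corneal endothelium markers tested, 2 were higher, 1 was lower and 6 were not called. Their median log2 fold change was -0.01, so the higher sum does not describe the whole list. KERA, KRT12 and KDR were at 0 in all libraries, and PTPRC was at 0 in siControl with a mean of 0.00491 FPKM in siNAMPT. The part of these differences in the results below was not tested.

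The composite element to which ATF4 binds with a C/EBP partner was looked for in the promoters, since it is the sequence that ties the targets to the factor. RefSeq promoters (GRCh38.p14, 250 bases before to 50 after the start site) were found for all 10 genes and searched on both strands for TGATGNAA, which reads TTNCATCA on the other strand. ASNS and CHAC1 held it, and both fell. The sequences below run 5′ to 3′ on the gene's strand, with the element in capitals and 30 bases on each side.
ASNS, chr7:97872439-97872506, element from base -68 to -61 before the start site: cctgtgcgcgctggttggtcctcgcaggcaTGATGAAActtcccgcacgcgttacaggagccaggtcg
CHAC1, chr15:40953232-40953299, element from base -209 to -202: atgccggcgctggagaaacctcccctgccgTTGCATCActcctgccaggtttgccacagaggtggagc

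The other 8 promoters did not hold these letters in the window, which says nothing of elements elsewhere. Of 27305 genes in the RefSeq table, 4.46% held the element in at least 1 promoter of this length. A match describes the sequence and is not a binding site. Of 295 tested genes with the element, 76 were lower and 62 higher, with a median log2 fold change of -0.04, against -0.01 for 10210 genes without it.

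ATF4 itself fell in every siNAMPT library. Its level (ENSG00000128272, chromosome 22 from 39519695 to 39522685, GRCh38) was 472, 466 and 456 CPM in siControl and 328, 311 and 325 CPM in siNAMPT. The groups were far apart compared with their spread, 465 ± 7.93 CPM against 321 ± 8.81 CPM (SD, n = 3 each). The log2 fold change was -0.53 (SE 0.04), a level 30.9% lower, with adjusted p = 1.29e-04 in edgeR's quasi-likelihood test. The pseudogene ATF4P3, with 97 to 195 counts against 6125 to 10036 for ATF4, could have shared reads with it in counting.

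CEBPB, the C/EBP factor that can partner ATF4, did not differ between the groups beyond its spread. Its values (ENSG00000172216, chromosome 20 from 50190734 to 50192689) were 35.3, 32.6 and 30.1 CPM in siControl and 31.1, 31.4 and 34.7 CPM in siNAMPT. The ranges overlapped throughout. The 95% interval of the fold ran from 0.865 to 1.14 (log2 fold change -0.01, adjusted p = 0.934). Its antisense gene CEBPB-AS1 had 0 to 19 counts.

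DDIT3 encodes CHOP, a bZIP factor induced by ATF4 that promotes death under lasting stress. It was measured (ENSG00000175197, chromosome 12 from 57516588 to 57520517) at 5.27, 6.70 and 9.90 CPM in siControl and 7.70, 12.6 and 11.6 CPM in siNAMPT. The third siControl library lay above the first siNAMPT library, so the groups overlapped. The log2 fold change was 0.54 (95% interval -0.08 to 1.17, adjusted p = 0.139), opposite in sign to ATF4 and not called. It was called higher without siControl replicate 3 (log2 0.83, adjusted p = 0.0377), over a range of adjusted p from 0.0377 to 0.332 across the alternatives. The 3′ end of DDIT3 overlaps MARS1, which had 2008 to 3769 counts, and the sources used here do not state whether counting used strand, so reads of the shared stretch cannot be told apart.

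TRIB3, a pseudokinase that ATF4 and CHOP induce and that feeds back on them, had higher values in 2 of 3 siNAMPT libraries. Its level (ENSG00000101255, chromosome 20 from 362835 to 397559) was 38.3, 37.1 and 36.6 CPM in siControl and 45.7, 44.2 and 38.2 CPM in siNAMPT. The lowest siNAMPT library lay just under the highest siControl library. The log2 fold change was 0.19 (95% interval -0.00 to 0.39, adjusted p = 0.0986), and TRIB3 was called higher only without siNAMPT replicate 3 (log2 0.27, adjusted p = 0.0311).

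**Figure D1:**
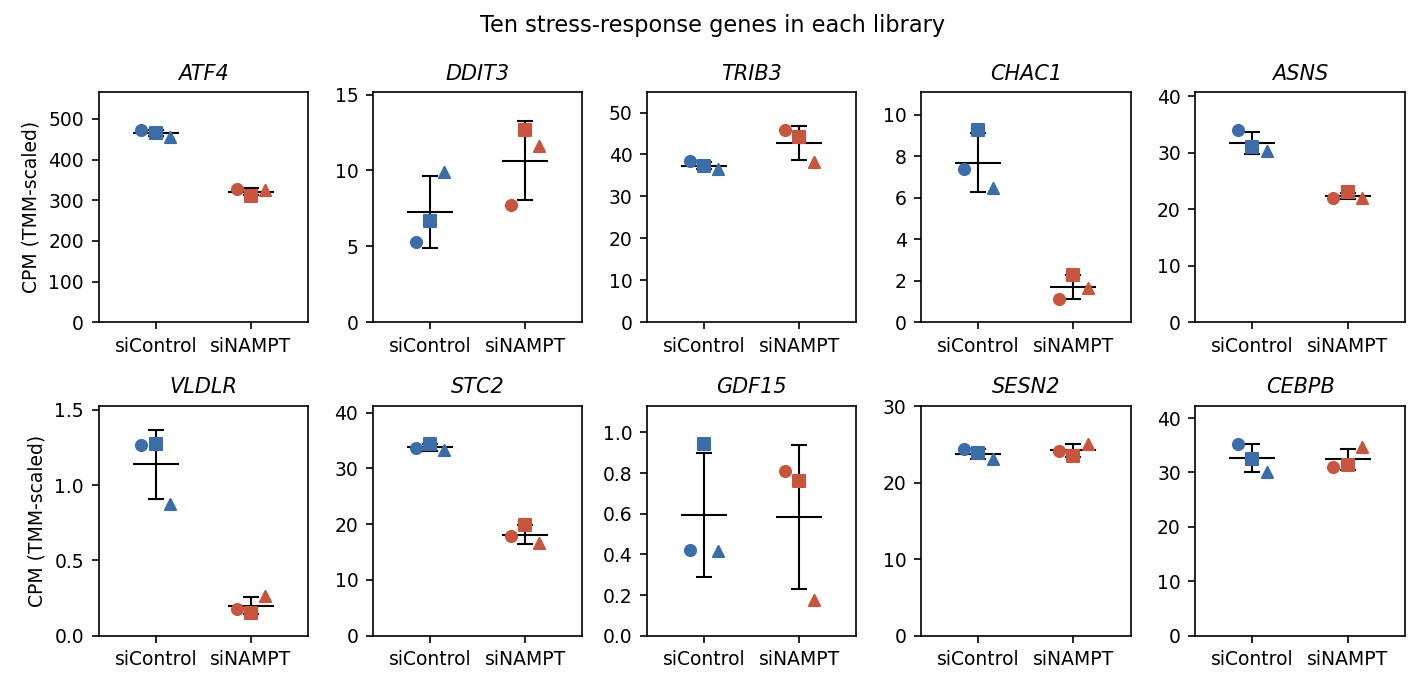
CPM scaled by TMM (y axis, from 0, a separate scale in each panel) of the 10 genes in siControl (blue) and siNAMPT (red). Points are libraries, with circle, square and triangle for replicates 1, 2 and 3, and bars give the mean ± SD (n = 3). The groups are apart for ATF4, CHAC1, ASNS, VLDLR and STC2, and overlap for the other 5.

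CHAC1, which breaks down glutathione and is among the most responsive targets of ATF4 and CHOP, fell steeply. It was at 7.38, 9.25 and 6.45 CPM in siControl and at 1.13, 2.29 and 1.63 CPM in siNAMPT (ENSG00000128965, chromosome 15 from 40952962 to 40956519). The highest siNAMPT library was below the lowest siControl library by more than the range of either group. The level was 4.596-fold lower (log2 -2.20, SE 0.26, adjusted p = 5.59e-04). On the log2(FPKM + 1) scale, which shrinks changes of low genes, the difference was -0.85 (adjusted p = 6.07e-04 with limma).

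ASNS, asparagine synthetase and a standard readout of amino acid limitation, fell to about the same degree as ATF4. Its values were 33.9, 31.0 and 30.3 CPM in siControl and 22.1, 23.0 and 21.98 CPM in siNAMPT (ENSG00000070669, chromosome 7 from 97852118 to 97872542). No library of one group came near the other. The log2 fold change was -0.51 (SE 0.07, adjusted p = 1.47e-03), with a 95% interval of -0.68 to -0.33 beside -0.64 to -0.43 for ATF4. Its 4 pseudogenes in the table had no counts.

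SESN2, a sestrin that restrains mTORC1 when leucine is short, did not differ between the groups beyond its spread. The values were 24.4, 23.9 and 23.1 CPM in siControl and 24.1, 23.5 and 25.1 CPM in siNAMPT (ENSG00000130766, chromosome 1 from 28259527 to 28282491). The 95% interval of the fold was 0.911 to 1.14, the narrowest of the genes that were not called (log2 fold change 0.03, adjusted p = 0.792).

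VLDLR, the receptor for very low density lipoprotein, had the largest fold change of the 10 genes and the lowest level per gene length. It had 27, 27 and 19 counts in siControl and 4, 3 and 6 counts in siNAMPT, or 1.27, 1.27 and 0.875 CPM against 0.180, 0.152 and 0.264 CPM (ENSG00000147852, chromosome 9 from 2621834 to 2660053). The groups did not overlap, though all siNAMPT counts were close to the floor of 3. The log2 fold change was -2.47 (SE 0.34, adjusted p = 1.08e-03). From the summed counts, 13 against 73, the ratio was 0.179, with an exact 95% interval of 0.0912 to 0.326 that covers counting error only. The antisense gene VLDLR-AS1 had 0 to 2 counts.

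The 3′ UTR of VLDLR in GENCODE 29 also held 1 copy of TACCATA, a 7-base word. The 939 tested genes with this word had a median log2 fold change of -0.32, against 0.01 for 9379 genes without its core ACCATA. For 995 genes with ACCATAA, which extends the core on its other side, the median was -0.28. NAMPT, the targeted gene, held 1 copy of ACCATAA and 0 of TACCATA. The words were chosen with earlier results of these data known, so these medians are not independent of that choice. The length of the 3′ UTR, 6185 bases for VLDLR, was not taken into account. TRIB3 held only the core, and the other 8 genes, ATF4, CHAC1, ASNS and STC2 among them, held neither. Of 135 tested genes in the related lists described further on, 56 were lower and 22 higher. Among all genes tested, 21.9% were lower and 20.8% higher. Of the related genes, 14 held TACCATA. Of these 13 were lower (EIF2S1, ERN1, FAS, HSPA5, LRP8, MTHFD2, NARS1, POLK, PSAT1, SEL1L, SLC36A4, SLC38A1 and SLC7A1), and MAFG was not called (-0.06). The share called lower among all 939 genes with TACCATA was not counted, so 13 of 14 has no matching background. The sites are shown with the word in capitals, and whether the word bears on VLDLR was not tested.
VLDLR, chr9:2659085-2659112: tttaaattctTACCATAtgcttactttt
TRIB3, chr20:396987-397014: acttttccatgACCATAggtcactgtct

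STC2, stanniocalcin 2, a secreted glycoprotein induced by ATF4, fell by 46.4%. Its values were 33.7, 34.4 and 33.3 CPM in siControl and 17.8, 19.9 and 16.6 CPM in siNAMPT (ENSG00000113739, chromosome 5 from 173314713 to 173329503). The siControl libraries averaged 33.8 ± 0.579 CPM (SD, n = 3), and the siNAMPT libraries lay well below them. The log2 fold change was -0.90 (SE 0.08, adjusted p = 2.13e-04).

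GDF15, a secreted stress hormone that both ATF4 and p53 induce, was low in every library. It had 9, 20 and 9 counts in siControl and 18, 15 and 4 counts in siNAMPT (ENSG00000130513, chromosome 19 from 18374731 to 18389176). The groups overlapped widely, and the 95% interval of the fold was wide, 0.386 to 2.45 (log2 fold change -0.04, adjusted p = 0.962). From the summed counts, 37 against 38, the exact 95% interval that covers counting error only was narrower, 0.606 to 1.58.

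**Figure D2:**
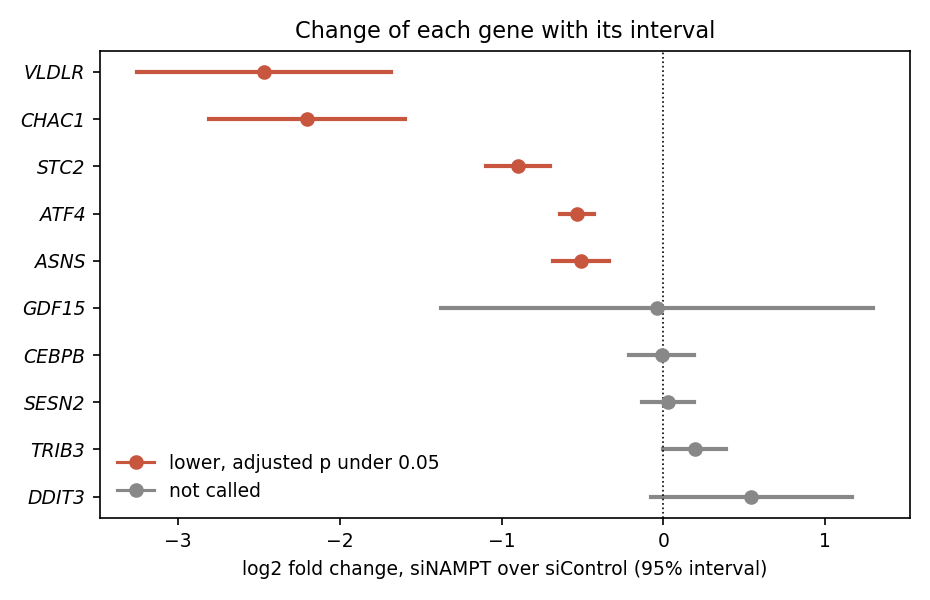
Log2 fold change of siNAMPT over siControl (x axis) for the 10 genes, with 95% intervals from edgeR's quasi-likelihood fit of 3 libraries a group. Red marks genes lower at adjusted p under 0.05 and grey those not called, and the intervals of VLDLR and CHAC1 lie wholly below that of STC2.

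Called genes made up 50% of the 10, beside 42.7% of all genes, and lower genes also 50%, beside 21.9%. The groups did not overlap for 54.9% of all genes and for 5 of the 10 genes. The median log2 fold change was -0.27 over the 10 genes and 0.00 over all genes tested. At an unadjusted p under 0.05, edgeR put 0 of the 10 genes higher, while DESeq2 put 1 higher at that level and 0 after adjustment. Leaving out siControl replicate 3 or siNAMPT replicate 3 raised the count of higher genes from 0 to 1, DDIT3 and TRIB3 respectively, and the count of lower genes was 5 without any one library.

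Per gene length, the 10 genes spanned a wide range of levels. ATF4 was highest at 112 ± 1.04 FPKM in siControl, followed by CEBPB at 16.5 ± 1.196, TRIB3 at 8.19 ± 0.147 and SESN2 at 6.83 ± 0.133 FPKM (SD, n = 3 each). STC2 at 4.72 ± 0.0593 and ASNS at 3.24 ± 0.177 FPKM came next. CHAC1 and DDIT3 did not differ beyond their spread in siControl, at 1.34 ± 0.240 and 1.21 ± 0.403 FPKM, and GDF15 and VLDLR were lowest at 0.170 ± 0.0863 and 0.103 ± 0.0199 FPKM. In siNAMPT the order of the means changed only between DDIT3 and CHAC1. STC2 stayed above ASNS by the mean, at 2.57 ± 0.236 and 2.32 ± 0.0689 FPKM, but their libraries overlapped. DDIT3 at 1.79 ± 0.451 FPKM stood above CHAC1 at 0.297 ± 0.104 FPKM, whose lowest library at 0.196 FPKM fell within the range of GDF15.

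**Figure D3:**
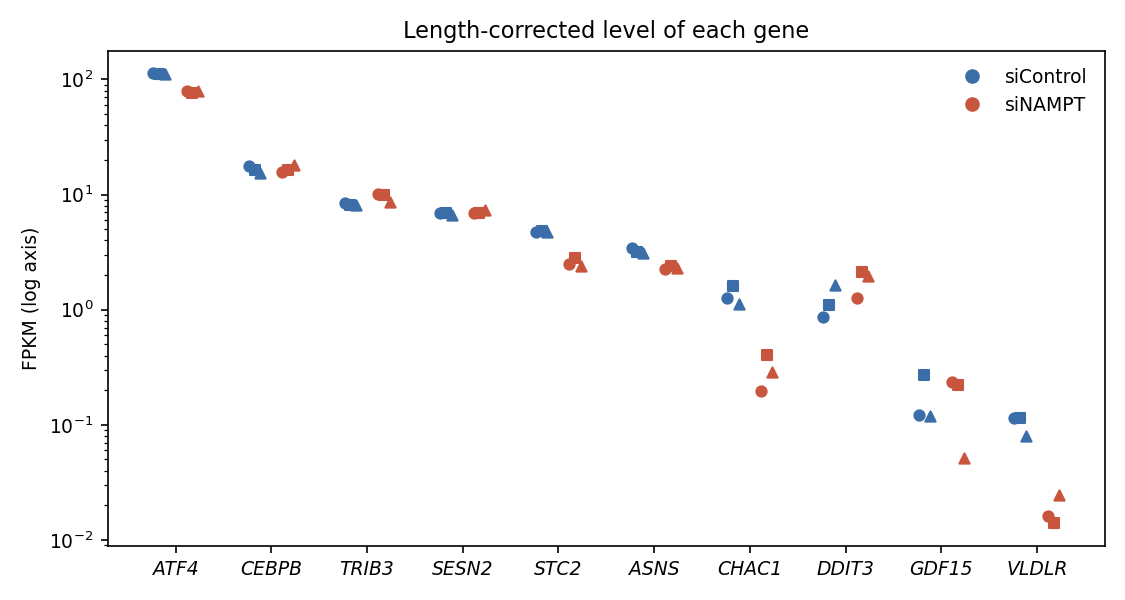
Deposited FPKM (y axis, log scale) of the 10 genes in each library, blue for siControl and red for siNAMPT, with circle, square and triangle for replicates 1, 2 and 3. Genes are ordered by their siControl mean, from ATF4 at 112 FPKM to VLDLR at 0.103 FPKM.

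The other genes of the pathway were taken from lists and described by counts, with the same background of 21.9% lower and 20.8% higher. Some genes belong to more than a single list and are counted in each. Upstream of ATF4, the list of eIF2 kinases, eIF2, eIF2B and their regulators had 6 of 20 members lower and 2 higher, with a median of -0.12. The heme-regulated kinase EIF2AK1 fell slightly (log2 -0.20, adjusted p = 0.0268). The PERK kinase EIF2AK3 (-0.09), the double-stranded RNA kinase EIF2AK2 (-0.16) and the amino acid sensor EIF2AK4 (-0.01) were not called. The 2 called higher were OMA1, the mitochondrial protease that starts the DELE1 relay (0.63), and IMPACT, an inhibitor of GCN2 (0.46). The eIF2 alpha subunit EIF2S1 fell from 160 to 98.5 CPM, and the exchange factor subunits EIF2B4 (-0.94) and EIF2B2 (-0.71) fell as well. The count of higher members was 1 without siControl replicate 2 or without siNAMPT replicate 3.

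Among 16 tested bZIP factors that can pair with ATF4, 5 were lower and 4 higher (median 0.23). The count of lower members was 4 under every alternative. ATF5, the closest relative of ATF4 and itself a target, fell from 44.3 to 16.7 CPM (log2 -1.41, SE 0.10, adjusted p = 7.49e-05). FOSL1 fell from 204 to 78.3 CPM and JUN from 31.7 to 21.1 CPM. NFIL3 (0.64), TEF (0.55) and DBP (0.52), PAR-type and related factors tied to the circadian clock, rose. CEBPG, the usual heterodimer partner of ATF4 in amino acid control, was just past the threshold (-0.24, adjusted p = 0.0498), and ATF3 was not called (0.26, adjusted p = 0.259).

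Close relatives of the 10 genes moved in both directions. Of 13 tested, 4 were lower and 1 higher (median -0.12). ATF5 and CEBPG, both lower, are also in the list of bZIP factors. SESN1, a sestrin under p53 and FOXO control, rose from 9.28 to 19.3 CPM (log2 1.06, SE 0.10, adjusted p = 2.04e-04), whereas SESN2 was not called. LRP8, a receptor close to VLDLR, fell from 60.4 to 35.3 CPM. CHAC2, which degrades glutathione at a low constant rate, fell by 0.41 on the log2 scale. Without siControl replicate 3 the counts were 2 lower and 2 higher, and without siNAMPT replicate 2 also 2 were higher.

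Other stress genes placed downstream of ATF4 or CHOP went both ways, with 6 of 19 tested lower, 5 higher and a median of 0.20. DDIT4, the mTORC1 inhibitor also called REDD1, rose from 318 to 628 CPM (log2 0.98, SE 0.055, adjusted p = 2.67e-05). KLHL24, an adaptor of a ubiquitin ligase (1.14), and BBC3, the death effector PUMA (1.07), rose too. VEGFA (-1.25), the tRNA exporter XPOT (-0.54) and the translation repressor EIF4EBP1 (-0.52) fell. The phosphatase subunit PPP1R15A, which reverses eIF2 phosphorylation, fell by 0.32 on the log2 scale.

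In amino acid synthesis 9 of 11 tested genes fell and 1 rose, with a median of -0.29. The count of lower genes was 7 or 8 under every alternative. PSAT1, of serine synthesis, fell from 349 to 99.6 CPM and MTHFD2, of mitochondrial folate metabolism, from 123 to 48.0 CPM. GOT1, aspartate aminotransferase, fell from 168 to 123 CPM. The single riser, PSPH (0.26, adjusted p = 0.0255), was lost, leaving 0 higher, without siControl replicate 2 or 3, without siNAMPT replicate 2 or 3, and with no filter on low counts.

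Amino acid transporters gave 6 lower of 10 tested and 0 higher (median -0.40). Both chains of the leucine carrier fell, SLC7A5 from 6964 to 4706 CPM and SLC3A2 from 1086 to 755 CPM. SLC36A4 (-0.85) and the glycine carrier SLC6A9 (-0.57) fell as well, and the cystine carrier SLC7A11 was not called (0.27, adjusted p = 0.146). Without siControl replicate 3, 1 transporter was called higher.

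Cytosolic aminoacyl-tRNA synthetases, which charge tRNAs and are a textbook group of ATF4 targets, had 10 of 20 members lower and 1 higher (median -0.20). NARS1 (-0.91), MARS1 (-0.62) and FARSA (-0.61) fell most. The count of higher members was 0 without any one siControl library, without siNAMPT replicate 2 or 3, and with no filter on low counts, and 2 with limma on log2(FPKM + 1) and on log2(FPKM + 0.1).

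**Figure D4:**
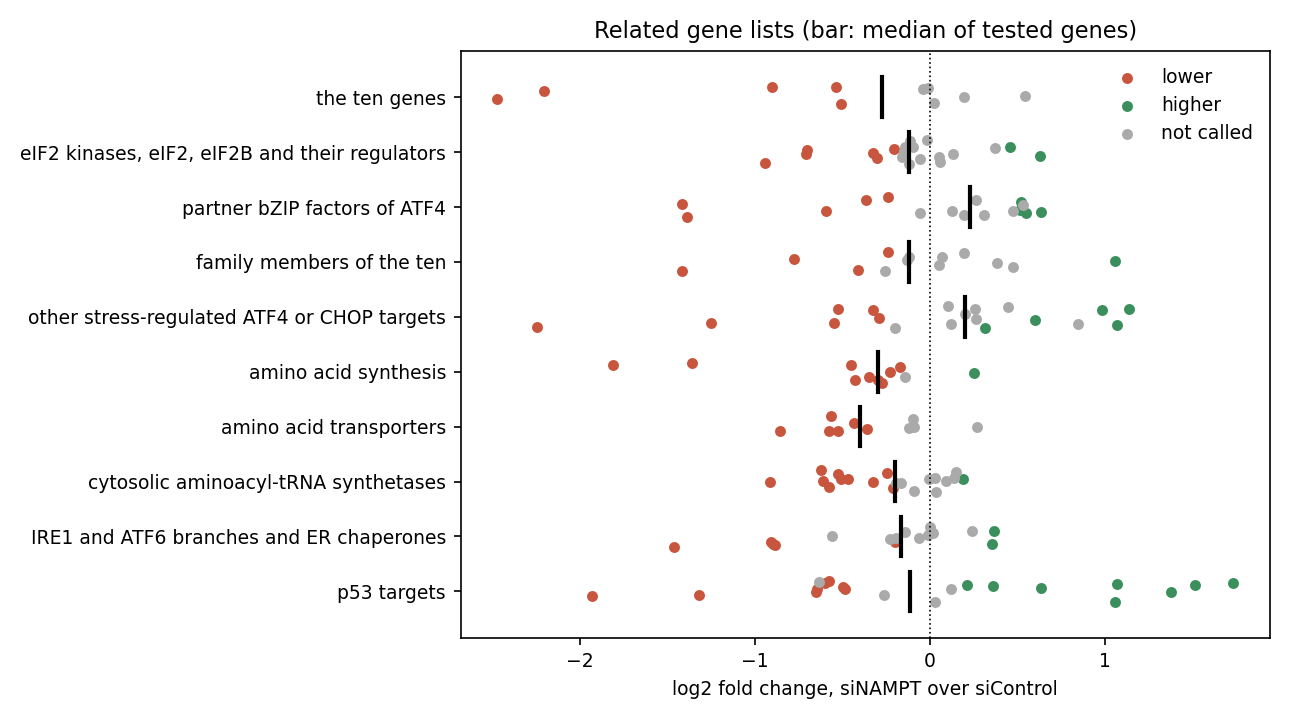
Log2 fold change (x axis) of each tested gene in the 10-gene set and in 9 related lists (rows), red for lower, green for higher and grey for not called, with a black bar at the list's median. The medians lie at -0.29 for amino acid synthesis and -0.40 for transporters, and at 0.20 for other ATF4 or CHOP targets.

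The promoter element was more frequent in the related lists, which partly name genes already known as ATF4 targets. Of 119 genes with a promoter in the table, 17.6% held TGATGNAA against 4.46% of all genes in the RefSeq table and 2.81% of the 10505 genes tested, and this share is not independent of how the lists were drawn up. Of the 20 tested with it, 13 were lower and 1 was higher, with a median of -0.24. Of the 93 tested without it, 33 were lower and 18 higher, with a median of -0.09. Among all 295 tested genes with the element, 76 were lower and 62 higher. Many of the 20 are aminoacyl-tRNA synthetases or amino acid transporters, lists with 10 of 20 and 6 of 10 tested genes lower. The split by element is thus not independent of the split by list. Sequences are shown for GOT1 and MARS1, which fell, and for JDP2, a bZIP repressor, which was the 1 of the 20 that rose (0.32). The element is again in capitals.
GOT1, chr10:99430785-99430852, element from base -198 to -191: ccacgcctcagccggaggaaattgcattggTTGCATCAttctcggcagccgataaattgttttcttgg
MARS1, chr12:57488034-57488101, element from base -4 before to 4 after the start site: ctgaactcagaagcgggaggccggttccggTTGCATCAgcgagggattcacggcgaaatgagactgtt
JDP2, chr14:75427976-75428043, element from base -16 to -9: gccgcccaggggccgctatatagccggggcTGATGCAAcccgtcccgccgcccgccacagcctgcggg

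**Figure D5:**
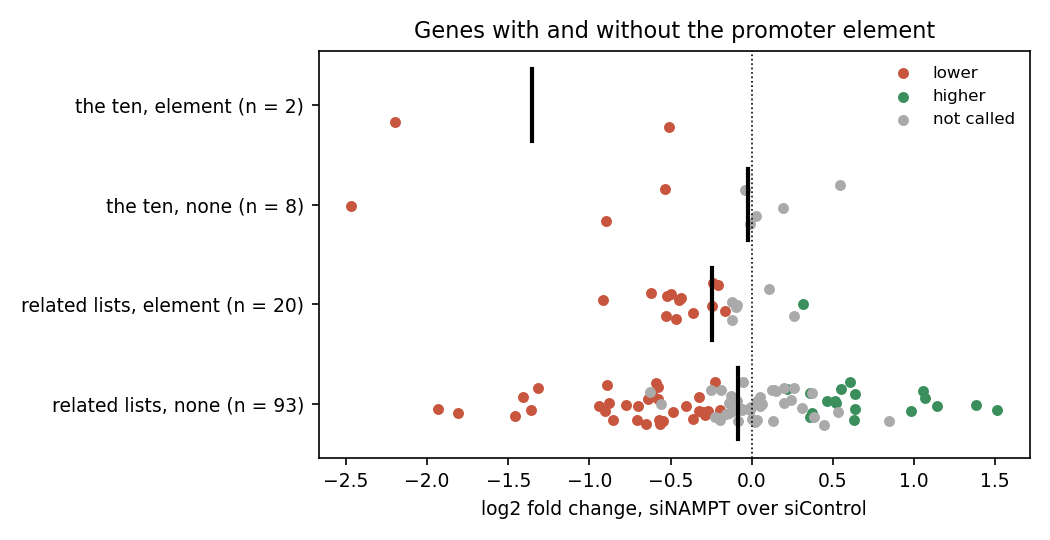
Log2 fold change (x axis) of the 10 genes and of genes in related lists, split by whether a RefSeq promoter holds the element (rows), red for lower, green for higher, grey for not called, and a black bar at the median. Of the 20 related genes with it 13 are lower and 1 is higher, and both of the 10 genes with it, CHAC1 and ASNS, are lower. Among all 295 tested genes with it, which are not drawn, 76 are lower and 62 higher.

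Other branches of the endoplasmic reticulum stress response were mixed. Of 16 genes of the IRE1 and ATF6 branches with their chaperones, 5 were lower and 2 higher (median -0.17). The chaperone HSPA5 (-1.46), the sensor ERN1 (-0.91) and the degradation factor SEL1L (-0.89) fell. ATF6 (0.36) and EDEM1 (0.37) rose, and XBP1 was not called (-0.56, adjusted p = 0.0784).

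The p53 targets were listed because p53 also induces GDF15 and SESN2, neither of which was called. Of 20 members 8 were lower and 8 higher (median -0.11). TP53INP1 (1.73), BTG2 (1.51) and BBC3 rose, and FAS (-1.93), TIGAR (-1.32) and AEN (-0.65) fell. CDKN1A, the p21 inhibitor, was not called (0.03, adjusted p = 0.770). With limma on log2(FPKM + 1), where 16 members passed the filter, 5 were lower.

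Over the 6 libraries, the genes most like the mean profile of the 5 genes that fell were GOT1 (Pearson r 0.999), ATG3 (0.999), IKBKGP1 (0.999), ODC1 (0.999) and RGP1 (0.999). With 2 groups of 3 the profile is mainly the group difference, and 200 of 9727 genes with a mean of at least 10 CPM had r above 0.99. GOT1 was at 168 and 123 CPM in siControl and siNAMPT, ATG3 at 114 and 50.6 CPM and ODC1 at 188 and 97.7 CPM.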

How the data were processed

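Per the labels' protocols, mRNA libraries were sequenced in read pairs on a NovaSeq instrument. The authors deposited whole-number counts per gene and library and FPKM values, per the file headers. Which aligner, counting program and annotation were used is not given in the sources used here. GRCh38 and mm10 are named in the submitters' processing notes. In GENCODE 29, 98.5% of gene IDs were found, 94.8% of these at an identical position, so coordinates are given as GRCh38.

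The test was edgeR 4.0.16 (R 4.3.3) on the counts, a two-sided quasi-likelihood fit with group as the only term after filterByExpr and TMM, over 15213 genes, with Benjamini-Hochberg adjustment over all of them at 0.05. SE is the log2 fold change over the root of F, and 95% intervals use the fit's degrees of freedom. The fit was tested on simulated data. Alternatives were DESeq2 1.42.0, its size factors in edgeR, all genes kept whatever their counts, limma 3.58.1 on deposited FPKM (pseudocounts 1 and 0.1, FPKM of at least 1 in 3 libraries), the replicate block, and leaving out each library.

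The 10 genes, the lists, the promoter element and the 3′ UTR words were chosen with earlier results of these data known. From each list up to 3 risers and 3 fallers with the largest called changes and at least 1 CPM are named. EIF2AK1 to EIF2AK4, CEBPG, ATF3, SESN2, PPP1R15A, JDP2, SLC3A2, SLC7A11, XBP1 and CDKN1A were named for their roles after their values were seen, as were the markers and the genes listed for TACCATA. Some list members are not reported here by name. The 3′ UTR came from 1 coding transcript per gene, the APPRIS principal one where given. Figures used Python 3.11.15 and matplotlib 3.10.9.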

Additional observations from a re-analysis of the deposited data

How the results depend on the processing

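The 5 lower genes (ATF4, CHAC1, ASNS, VLDLR and STC2) were lower and called under every alternative in which they could be tested. VLDLR and GDF15 did not pass the FPKM filter, so 4 lower genes were called of the 8 tested with limma. The count of genes called higher was 0 with all libraries and ranged from 0 to 1 when 1 library was left out. With the replicate block it was 1, DDIT3 (log2 0.56, adjusted p = 0.0404). The block is not given by the design, because same-numbered libraries deviated together with correlations of 0.11, -0.04 and 0.07 and not every library correlated best with its own number. No other gene of the 10 changed its call under the block, and 1 amino acid transporter was called higher, against 0 without it. The direction of CEBPB, never called, turned to 0.00977 with limma on log2(FPKM + 1), 0.0103 on log2(FPKM + 0.1), 0.0472 without siControl replicate 1, 0.0220 without siNAMPT replicate 1 and 0.0113 without siNAMPT replicate 2, over a range of -0.0661 to 0.0472 with 1 library left out. That of GDF15 turned to 0.45 without siControl replicate 2 and 0.41 without siNAMPT replicate 3, over a range of -0.37 to 0.45. A count of 3 corresponds to 0.134 to 0.154 CPM, which limits GDF15 and VLDLR. No scaling moved the median of all genes by over 0.1 on the log2 scale.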
